A study of Mus musculus with 10 samples.

Results

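The 36 genes described here act in ribosome biogenesis or are known targets of the transcription factor Myc, with Myc itself among them. They were taken by symbol from a list put together by hand, and all 36 were found among the 38215 genes of the deposited table. Each was measured by poly(A)-selected RNA-seq in acute myeloid leukaemia (AML) of mice. In all 10 libraries the leukaemia carried retroviral AML1-ETO, a fusion transcription factor, and the oncogene NrasG12D, with GFP marking the transduced cells. It had arisen from transduced lineage-depleted bone marrow and had grown first in Rag2-/-γc-/- mice, a strain without T, B or NK lymphocytes. Its GFP+ spleen cells were then passed to secondary recipients, which were 5 immunocompetent C57BL/6J mice (libraries 1, 3, 4, 5 and 6) and 5 Rag2-/-γc-/- mice (libraries 7 to 11). GFP+ splenocytes were collected once these mice had AML. The labels do not say how many primary leukaemias were passed on, nor the age of the mice. P-values therefore set a group difference against how much these recipients varied, which may be less than the variation from one primary leukaemia to another. Recipients of the same primary leukaemia would not be independent of one another, and p-values could then be too small.

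Ribosomes are built in the nucleolus, where RNA polymerase I transcribes a long precursor of the ribosomal RNAs. Small nucleolar ribonucleoproteins (snoRNPs) modify this precursor, and large sets of assembly factors cleave it and fold it into the small and the large subunit. Myc binds the promoters of many of these genes and raises ribosome output in growing cells, and MYC activity is a well-known feature of proliferating leukaemia cells.

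Total expected counts ran between 32703932 and 44097690 for C57BL/6J libraries and between 28157745 and 62461126 for Rag2-/-γc-/- libraries. Each of the 36 genes had between 663 and 44940 counts in every library, so counting error was small beside the differences between mice. Within the Rag2-/-γc-/- group, libraries 7, 8 and 9 stood apart from 10 and 11 for many of these genes, and results are given with and without them. C57BL/6J library 1 stood apart in its mitochondrial share, 1.34% of counts against 2.91 to 4.002% in the other 9. Checked against cell type markers, dendritic cell genes summed to 3353 to 4259.9 CPM (expected counts scaled to a common library size) in C57BL/6J libraries and 1867 to 3227 CPM in Rag2-/-γc-/- libraries. Those of neutrophils summed to 3.45 to 26.8 and 4.90 to 27.5 CPM. In this list S100a8, S100a9, Ngp and Ltf reached 8.61, 8.92, 5.89 and 4.81 CPM, while Mpo was at most 0.796 and Elane at most 0.247 CPM.

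The comparison asked how growth in an immunocompetent host, against growth in a host without lymphocytes, affected the leukaemia's transcriptome. No member was called different between the recipient types in edgeR, which does not show that none differed. None of the 36 was higher and none was lower in C57BL/6J recipients at an adjusted p under 0.05 (quasi-likelihood test of edgeR, Benjamini-Hochberg adjustment over 13966 genes), where 3.32% of all genes tested were higher and 4.47% were lower (7.79% in either direction). The adjusted p-values of the members ran from 0.0780 to 0.977. At an unadjusted p under 0.05 there were 4 of 36, against 25.7% of all genes tested, and DESeq2 called 1 of 36 higher and none lower, against 5.75% and 8.27% of its genes. In none of the 36 were the C57BL/6J libraries all above or all below the Rag2-/-γc-/- libraries, against 4.13% and 4.37% of all genes. The log2 fold change, C57BL/6J minus Rag2-/-γc-/-, was above 0 in 31 of 36 members, against 50.5% of all genes tested, and its median was 0.25 over the members and 0.00 over all genes.

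What the members did show was a split inside the Rag2-/-γc-/- group. In 23 of 36 members, Rag2-/-γc-/- libraries 7, 8 and 9 were all below the range of the 5 C57BL/6J libraries, which held for 20.7% of all genes tested. In the same number, libraries 7, 8 and 9 were the 3 lowest of all 10, against 16.5% of all genes. Libraries 10 and 11 were both within the C57BL/6J range in 26 members, against 45.5% of all genes, and 16 members joined both features, against 7.61%. Counted one library at a time, the number of members below the C57BL/6J range was 28 in library 7, 28 in library 8, 25 in library 9, 3 in library 10 and 0 in library 11. The reverse, with libraries 7, 8 and 9 all above that range, was seen in 0 of 36 members, against 20.3% of all genes. The standard deviation of log2 CPM was larger in the Rag2-/-γc-/- group in 27 of 36 members, against 56.5% of all genes. Its median over the members was 0.33 among Rag2-/-γc-/- libraries and 0.17 among C57BL/6J libraries. The split of the Rag2-/-γc-/- libraries had been seen in these data before, so these counts describe it and do not test it.

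**Figure D1:**
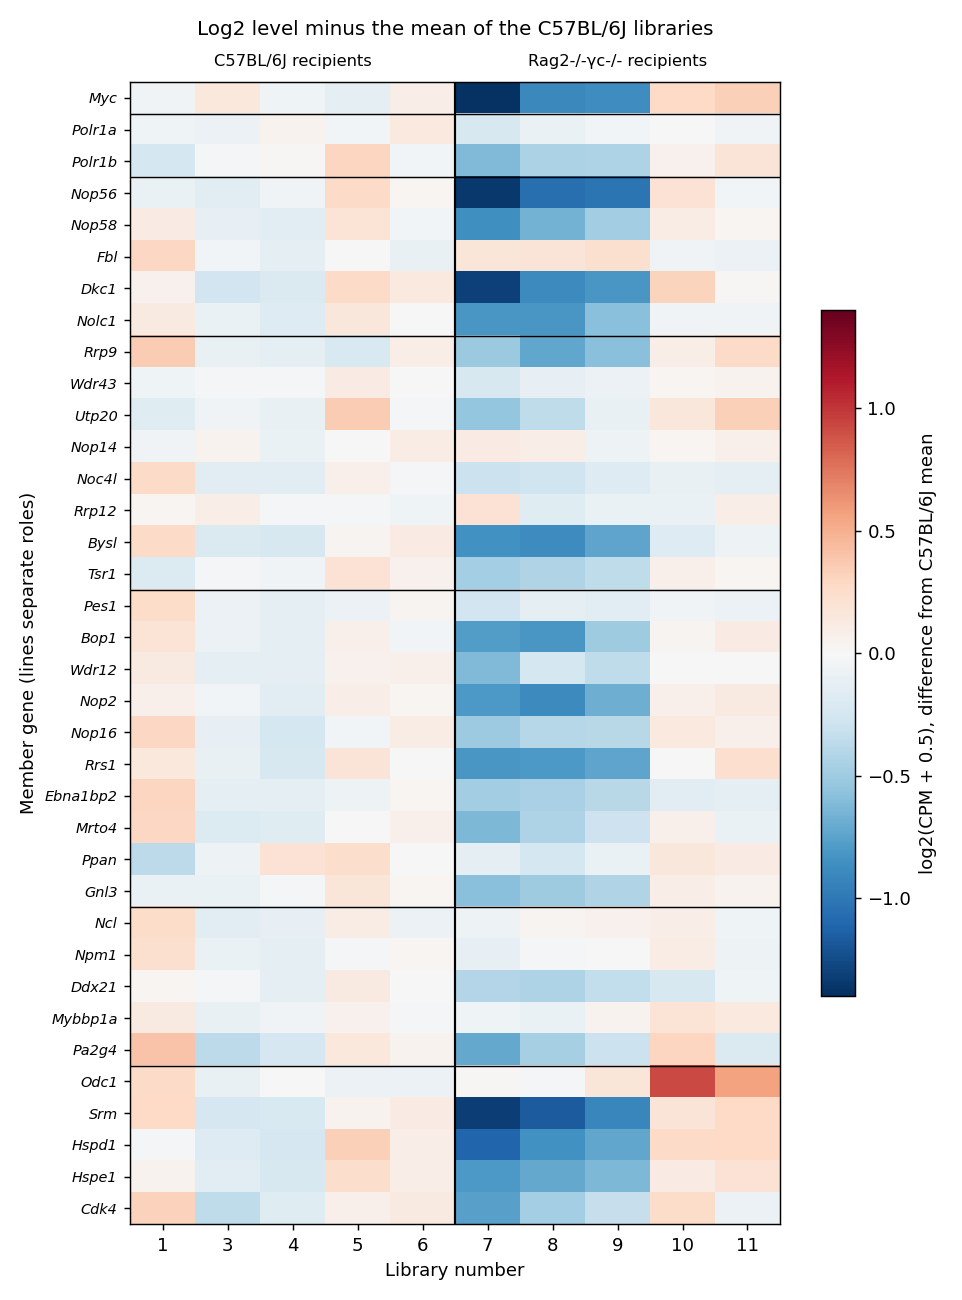
Heat map of the 36 members (down the page, with lines between roles) in the 10 libraries (across, C57BL/6J at the left), coloured by log2(CPM + 0.5) minus the mean of the C57BL/6J libraries. Libraries 7, 8 and 9 are blue in most rows, with Myc, Nop56, Dkc1 and Srm darkest, while libraries 10 and 11 are paler in most rows and Odc1 is the reddest of the members in both.

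Myc, the basic helix-loop-helix factor that gives the list its name, showed the split in full. It had 69.97, 80.1, 69.3, 65.5 and 77.4 CPM in C57BL/6J libraries 1, 3, 4, 5 and 6, against 27.5, 38.3, 39.4, 87.5 and 90.9 CPM in Rag2-/-γc-/- libraries 7, 8, 9, 10 and 11. Libraries 7, 8 and 9 were thus below every C57BL/6J library, and libraries 10 and 11 were above every one of them. The group means were 72.4 ± 6.07 CPM and 56.7 ± 30.1 CPM (SD, n = 5 each), and the log2 fold change was 0.35 ± 0.30 (SE; edgeR adjusted p = 0.464). The value turned with the libraries used, being 1.05 without Rag2-/-γc-/- libraries 10 and 11 and -0.30 without libraries 7, 8 and 9.

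Myc pairs with Max on the hexamer CACGTG, the canonical E-box, and the promoters of the members were searched for it because many of the members moved together across libraries. RefSeq promoter windows on GRCm38.p6, from 250 bases before to 50 bases after a gene's start, were at hand for 29 of 36 members. The motif reads the same on both strands, and no other motif was searched. It was present in 8 of 29 members (27.6%), against 2187 of 27025 genes with a window (8.09%), a description without a test. The 8 were Wdr43, Utp20, Tsr1, Pes1, Nop2, Mybbp1a, Hspd1 and Cdk4. They included genes with a wide spread over the libraries (Nop2, Hspd1) and genes with little (Pes1, Wdr43, Mybbp1a), and none of the 4 snoRNP members with a window had a match. Cdk4 is shown because it held 4 matches, Nop2 and Hspd1 for their wide spread with 1 match each, and Nop56 because it had no match and the highest log2 fold change of the 36. Capitals mark CACGTG, and each sequence runs 5′ to 3′ on the gene's strand.
Cdk4 (chr10:127063285-127063584, plus strand): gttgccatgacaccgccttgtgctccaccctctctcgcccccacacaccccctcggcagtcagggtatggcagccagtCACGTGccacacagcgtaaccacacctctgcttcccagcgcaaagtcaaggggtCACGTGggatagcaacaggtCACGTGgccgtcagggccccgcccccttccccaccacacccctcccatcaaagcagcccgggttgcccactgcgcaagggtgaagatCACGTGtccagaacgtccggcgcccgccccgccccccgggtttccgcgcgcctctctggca
Nop2 (chr6:125131633-125131932, plus strand): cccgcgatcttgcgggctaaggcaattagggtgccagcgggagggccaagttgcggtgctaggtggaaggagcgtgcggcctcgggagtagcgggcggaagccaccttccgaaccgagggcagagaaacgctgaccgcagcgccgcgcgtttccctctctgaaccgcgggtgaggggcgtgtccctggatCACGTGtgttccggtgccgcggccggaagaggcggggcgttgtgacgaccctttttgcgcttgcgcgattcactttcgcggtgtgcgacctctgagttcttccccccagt
Hspd1 (chr1:55088194-55088493, minus strand): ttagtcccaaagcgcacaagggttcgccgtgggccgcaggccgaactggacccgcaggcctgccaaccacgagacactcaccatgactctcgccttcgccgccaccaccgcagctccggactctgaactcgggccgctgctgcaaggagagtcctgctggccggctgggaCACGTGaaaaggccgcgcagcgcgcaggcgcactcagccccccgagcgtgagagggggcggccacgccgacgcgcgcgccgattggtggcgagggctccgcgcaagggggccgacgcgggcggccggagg
Nop56 (chr2:130274162-130274461, plus strand): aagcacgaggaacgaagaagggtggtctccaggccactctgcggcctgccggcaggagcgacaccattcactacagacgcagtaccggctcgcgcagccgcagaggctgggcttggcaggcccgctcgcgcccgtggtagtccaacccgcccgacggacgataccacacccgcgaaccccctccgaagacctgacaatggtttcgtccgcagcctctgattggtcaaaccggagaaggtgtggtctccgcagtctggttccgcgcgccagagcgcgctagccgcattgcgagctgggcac
The matches of Cdk4 began 172, 118, 98 and 11 bases before the start, that of Nop2 60 bases before it and that of Hspd1 80 bases before it. RefSeq gives Hspd1 a second window (chr1:55087883-55088182) without a match, and a gene was counted when any of its windows held one. Among the further gene lists, counted by genes with a window, the motif was in 16 of 37 other Myc targets (43.2%) and 6 of 58 ribosomal protein genes (10.3%). It was in 5 of 20 Myc network genes, 10 of 42 small subunit factors, 8 of 41 large subunit factors and 3 of 17 polymerase I genes. Of 8 further snoRNP factors 0 had it, and of 31 cell cycle genes 3 (9.68%). A match describes the letters of these windows and is no evidence of binding in these cells.

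The snoRNP genes had the highest median log2 fold change of the nucleolar roles, 0.43 over 5 genes. Nop56 encodes a core protein of box C/D snoRNPs, which guide methylation of ribosomal RNA. It had 135, 129.6, 139, 173 and 147 CPM in C57BL/6J libraries 1, 3, 4, 5 and 6, against 56.2, 68.96, 70.6, 166 and 139.6 CPM in Rag2-/-γc-/- libraries 7 to 11. Libraries 7, 8 and 9 were at about the level of one another and far below the other 7. The log2 fold change was 0.53 ± 0.27 (SE; edgeR adjusted p = 0.241) with all libraries and 1.15 without libraries 10 and 11. Nop58, its partner in the same particle, had 119.9, 102, 99.5, 126 and 107 CPM in C57BL/6J libraries, against 60.6, 69.4, 78.9, 119 and 113 CPM in Rag2-/-γc-/- libraries. It followed the same order with a smaller step, at a log2 fold change of 0.33 ± 0.18. Dkc1 encodes dyskerin, the pseudouridine synthase of box H/ACA snoRNPs and a part of telomerase. It had 56.4, 44.9, 47.02, 65.3 and 59.7 CPM in C57BL/6J libraries, against 21.5, 29.04, 30.4, 67.2 and 54.8 CPM in Rag2-/-γc-/- libraries, where library 10 was the highest of all 10 and library 7 the lowest. Nolc1, a chaperone of snoRNPs in the nucleolus and Cajal bodies, had 103, 88.1, 83.3, 106 and 93.7 CPM in C57BL/6J libraries, against 53.3, 53.4, 62.9, 91.3 and 90.9 CPM in Rag2-/-γc-/- libraries (log2 fold change 0.43 ± 0.17, edgeR adjusted p = 0.140).

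Fbl encodes fibrillarin, the methyltransferase of the same box C/D particle as Nop56 and Nop58, and did not share their pattern. It had 158, 126, 117, 128 and 119.7 CPM in C57BL/6J libraries, against 145, 146, 151, 124 and 122 CPM in Rag2-/-γc-/- libraries. Libraries 7, 8 and 9 were here among the higher ones, with only C57BL/6J library 1 above them. Its log2 fold change was -0.09 ± 0.10 (SE; edgeR adjusted p = 0.609).

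**Figure D2:**
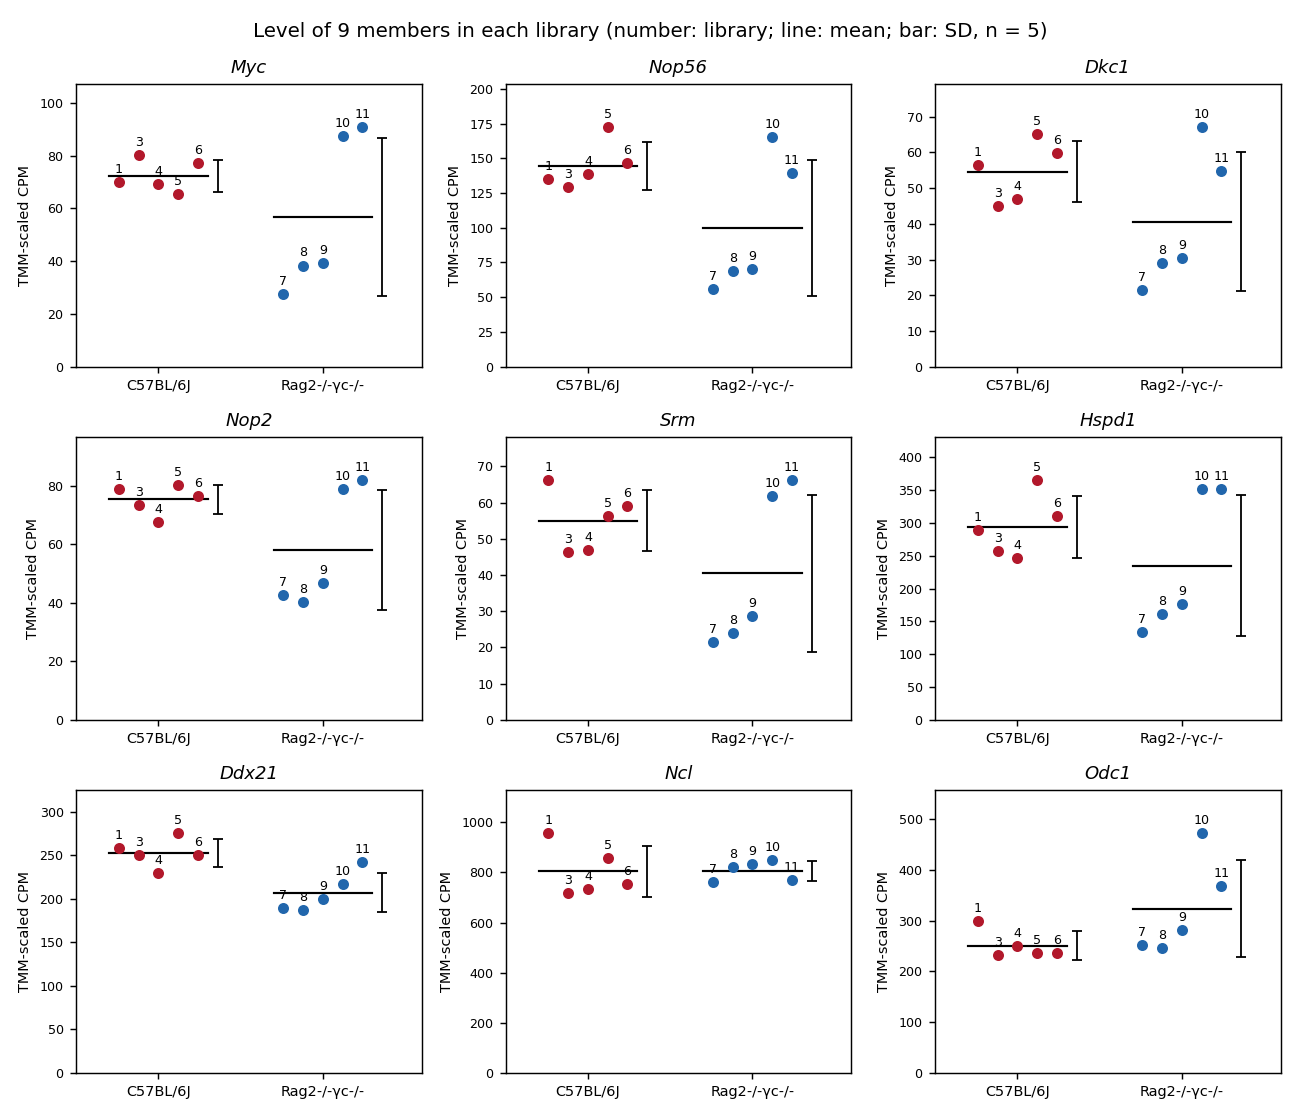
TMM-scaled CPM (vertical axis, from 0) of 9 members in each library, with C57BL/6J recipients in red at the left of each panel and Rag2-/-γc-/- recipients in blue at the right; numbers name libraries, lines are group means and bars are SD (n = 5). In Myc, Nop56, Dkc1, Nop2, Srm and Hspd1 the blue points fall into a low set (7, 8, 9) and a high set (10, 11), Ncl is level, and Odc1 is highest in libraries 10 and 11.

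The 2 RNA polymerase I subunits differed in how far the libraries spread. Polr1b, the second-largest subunit, had 28.1, 32.99, 33.8, 41.5 and 32.6 CPM in C57BL/6J libraries, against 21.7, 24.6, 24.6, 35.02 and 38.1 CPM in Rag2-/-γc-/- libraries, with libraries 7, 8 and 9 the 3 lowest. Polr1a, the largest subunit, had 153, 151, 165, 155 and 176 CPM in C57BL/6J libraries, against 136, 149.7, 155, 159 and 154 CPM in Rag2-/-γc-/- libraries. Only libraries 7 and 8 were outside its C57BL/6J range, library 8 by little. The log2 fold change was 0.08 ± 0.08 for Polr1a and 0.23 ± 0.17 for Polr1b (SE), neither past the threshold.

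The 8 small subunit assembly genes ranged in log2 fold change from -0.04 to 0.52, with a median of 0.14. Bysl, which encodes the late factor bystin, had the highest value. It was at 58.4, 41.8, 41.2, 49.8 and 52.4 CPM in C57BL/6J libraries, against 26.5, 26.1, 28.7, 42.6 and 45.9 CPM in Rag2-/-γc-/- libraries (log2 fold change 0.52 ± 0.18, edgeR adjusted p = 0.105). Unlike Myc, it was within the C57BL/6J range and not above it in libraries 10 and 11. Bysl passed the threshold without library 10 (edgeR adjusted p = 0.0439) or without library 11 (0.0381). Rrp9, a protein of the U3 snoRNP that starts precursor cleavage, had 51.3, 37.1, 36.2, 34.3 and 42.7 CPM in C57BL/6J libraries, against 27.6, 23.9, 26.5, 42.7 and 48.1 CPM in Rag2-/-γc-/- libraries. Tsr1, which acts on late small subunit particles, had 75.3, 85.3, 83.4, 98.9 and 89.6 CPM in C57BL/6J libraries, against 62.03, 64.2, 67.3, 90.7 and 87.6 CPM in Rag2-/-γc-/- libraries. In both genes libraries 7, 8 and 9 were lowest. Noc4l, a factor of early small subunit particles, had 39.1, 29.2, 28.9, 34.004 and 31.8 CPM in C57BL/6J libraries, against 26.2, 26.6, 28.5, 30.2 and 29.4 CPM in Rag2-/-γc-/- libraries, with C57BL/6J library 1 highest and libraries 7, 8 and 9 lowest by a small margin.

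The other 4 small subunit genes had log2 fold changes nearest to 0. Wdr43, a subunit of the U3-associated processome, had 91.1, 93.8, 92.9, 103 and 94.2 CPM in C57BL/6J libraries, against 81.1, 87.9, 89.4, 96.5 and 98.1 CPM in Rag2-/-γc-/- libraries. Libraries 7, 8 and 9 were again lowest, but by a few CPM. Utp20, a very large scaffold of the same particle, had 50.8, 55.1, 53.4, 73.2 and 56.1 CPM in C57BL/6J libraries, against 39.2, 44.6, 53.3, 64.1 and 72.5 CPM in Rag2-/-γc-/- libraries, so that its range inside each group was wider than the gap between the means. Nop14, another processome protein, had 52.8, 56.6, 51.2, 54.2 and 58.5 CPM in C57BL/6J libraries, against 58.9, 58.1, 51.9, 55.5 and 57.2 CPM in Rag2-/-γc-/- libraries, with library 7 highest and C57BL/6J library 4 lowest within a narrow range. Rrp12, which is needed for export and maturation of the subunits in yeast, had 56.9, 59.3, 54.5, 54.9 and 53.4 CPM in C57BL/6J libraries, against 64.4, 49.4, 52.2, 52.2 and 59.3 CPM in Rag2-/-γc-/- libraries, where library 7 was the highest of all 10. Their log2 fold changes lay between -0.04 (Nop14) and 0.08 (Utp20).

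All 10 large subunit assembly genes had log2 fold changes above 0, from 0.05 to 0.37 with a median of 0.26, and none passed the threshold. Pes1, Bop1 and Wdr12 encode the PeBoW complex, which processes the precursor of the large subunit RNAs, and its subunits differed in spread. Bop1 had 81.9, 67.9, 65.2, 75.8 and 69.7 CPM in C57BL/6J libraries, against 41.7, 40.5, 50.8, 73.7 and 77.6 CPM in Rag2-/-γc-/- libraries. Wdr12 had 33.7, 28.01, 28.2, 32.2 and 32.3 CPM in C57BL/6J libraries, against 19.95, 25.96, 23.995, 30.8 and 30.9 CPM in Rag2-/-γc-/- libraries. In both, libraries 7, 8 and 9 lay below all others. Pes1 had 125, 98.7, 95.2, 98.9 and 108 CPM in C57BL/6J libraries, against 86.7, 96.03, 94.2, 101 and 98.5 CPM in Rag2-/-γc-/- libraries, and only libraries 7 and 9 fell outside the C57BL/6J range. Nop2, an RNA cytosine methyltransferase, had 78.8, 73.4, 67.6, 80.3 and 76.6 CPM in C57BL/6J libraries, against 42.7, 40.2, 46.7, 79.03 and 81.998 CPM in Rag2-/-γc-/- libraries (log2 fold change 0.37 ± 0.20, edgeR adjusted p = 0.257). Library 11 was the highest of all 10 by a little, and libraries 7, 8 and 9 were all under 50 CPM. Rrs1, which brings the 5S particle into the early large subunit, had 56.01, 47.01, 43.1, 57.5 and 50.4 CPM in C57BL/6J libraries, against 28.4, 28.7, 30.2, 50.7 and 59.5 CPM in Rag2-/-γc-/- libraries.

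Ebna1bp2, the mouse counterpart of yeast Ebp2, had 82.1, 60.9, 61.03, 63.7 and 68.2 CPM in C57BL/6J libraries, against 47.4, 48.8, 50.9, 60.1 and 61.1 CPM in Rag2-/-γc-/- libraries (log2 fold change 0.32 ± 0.11, edgeR adjusted p = 0.103). Here library 10 was just below the C57BL/6J range and library 11 at its low end. Mrto4, which holds the place of a stalk protein, had 47.005, 33.5, 33.9, 38.5 and 40.4 CPM in C57BL/6J libraries, against 24.6, 28.3, 31.3, 40.3 and 35.9 CPM in Rag2-/-γc-/- libraries. Gnl3, which encodes the nucleolar GTP-binding protein nucleostemin, had 45.2, 45.3, 47.7, 54.5 and 48.98 CPM in C57BL/6J libraries, against 31.9, 34.1, 35.9, 51.5 and 49.98 CPM in Rag2-/-γc-/- libraries. Nop16 had 56.8, 43.04, 39.2, 45.3 and 50.1 CPM in C57BL/6J libraries, against 32.4, 35.1, 35.5, 51.3 and 49.02 CPM in Rag2-/-γc-/- libraries. In Mrto4, Gnl3 and Nop16 libraries 7, 8 and 9 were again the lowest. Ppan, the counterpart of yeast Ssf1, had 59.99, 74.03, 89.1, 92.6 and 77.2 CPM in C57BL/6J libraries, against 71.4, 65.6, 72.7, 86.5 and 84.1 CPM in Rag2-/-γc-/- libraries, and its lowest library was C57BL/6J library 1.

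Among the 5 abundant nucleolar proteins, 3 were nearly level between the groups. Ncl, which encodes nucleolin, had 957, 718, 735, 856 and 754 CPM in C57BL/6J libraries, against 762, 823, 833, 850.1 and 768 CPM in Rag2-/-γc-/- libraries, with -0.01 ± 0.09 as the log2 fold change (SE; edgeR adjusted p = 0.977), whose sign changed with the scaling. Npm1, which encodes nucleophosmin and is often mutated in human AML, had 790.2, 634, 612, 665 and 688 CPM in C57BL/6J libraries, against 622, 667, 671, 727 and 642 CPM in Rag2-/-γc-/- libraries. Mybbp1a, a nucleolar partner of several transcription factors, had 261, 224, 231, 250.3 and 235 CPM in C57BL/6J libraries, against 229.6, 225, 248, 275 and 263 CPM in Rag2-/-γc-/- libraries. In none of these 3 were libraries 7, 8 and 9 outside the C57BL/6J range. Ddx21, an RNA helicase, had the smallest p of the 36. It was at 258, 250.1, 230.2, 276 and 251 CPM in C57BL/6J libraries, against 190.1, 187, 199, 217 and 242 CPM in Rag2-/-γc-/- libraries, and only library 11 reached into the C57BL/6J range. Its log2 fold change was 0.29 ± 0.09 (SE; edgeR adjusted p = 0.0780), and it was the member that DESeq2 called and one that edgeR called without library 11 (adjusted p = 0.0302). Pa2g4, which encodes the growth regulator EBP1, had 265, 157, 171, 223 and 209 CPM in C57BL/6J libraries, against 122, 146, 164, 248 and 175 CPM in Rag2-/-γc-/- libraries, and varied widely within both groups.

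Among the 5 Myc targets that act outside the nucleolus, the polyamine enzymes had log2 fold changes of opposite sign, neither past the threshold with all libraries. Both were higher in Rag2-/-γc-/- libraries 10 and 11 than in 7, 8 and 9, and they differed in their place against the C57BL/6J range. Srm, the spermidine synthase, had 66.1, 46.2, 46.9, 56.4 and 59.1 CPM in C57BL/6J libraries, against 21.5, 23.9, 28.7, 61.7 and 66.3 CPM in Rag2-/-γc-/- libraries (log2 fold change 0.44 ± 0.31, edgeR adjusted p = 0.376). Libraries 7, 8 and 9 were lowest, library 10 was within the C57BL/6J range, and library 11 was just above its top. Odc1, the ornithine decarboxylase that feeds Srm with putrescine, had 299.99, 231, 249, 236 and 236 CPM in C57BL/6J libraries, against 251, 246, 282, 472 and 368 CPM in Rag2-/-γc-/- libraries. Its libraries 7, 8 and 9 were inside the C57BL/6J range and libraries 10 and 11 were the highest of all. The log2 fold change of Odc1 was -0.37 ± 0.18 (SE; edgeR adjusted p = 0.209), the lowest of the 36. Without libraries 7, 8 and 9 it was -0.74 and past the threshold (edgeR adjusted p = 0.0382, 5 libraries against 2), and without libraries 10 and 11 it was -0.05.

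Hspd1 and Hspe1 encode the mitochondrial chaperonin and its co-chaperonin from neighbouring genes in opposite orientation on chromosome 1. Hspd1 had 289, 257, 247, 366 and 311 CPM in C57BL/6J libraries, against 134, 161, 176, 351 and 352 CPM in Rag2-/-γc-/- libraries. Hspe1 had 159.6, 138, 132, 183 and 164 CPM in C57BL/6J libraries, against 87.9, 93.6, 99.3, 167 and 177 CPM in Rag2-/-γc-/- libraries. The order of high and low libraries was the same in this pair, with 7, 8 and 9 lowest and C57BL/6J library 5 highest. In the table Hspe1 begins at position 55088132 and Hspd1, on the minus strand, begins at 55088243 (GRCm38), so they share 112 exonic bases whose reads may not be told apart. Cdk4, a cyclin-dependent kinase of the G1 phase, had 163, 102, 116, 136 and 142 CPM in C57BL/6J libraries, against 76.3, 93.4, 104, 155 and 123 CPM in Rag2-/-γc-/- libraries, a log2 fold change of 0.26 ± 0.19 with wide ranges in both groups.

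Leaving out library 10 alone gave 3 members higher and none lower (Nop56, Nolc1 and Bysl), against 7.58% and 9.32% of all genes. Leaving out library 11 alone gave 2 higher and none lower (Bysl and Ddx21), against 4.33% and 5.99%. The fits without part of the Rag2-/-γc-/- group put numbers on the split. Without libraries 10 and 11, which leaves 5 libraries against 3, edgeR called 23 of 36 members higher in C57BL/6J recipients and none lower, where it called 19.3% of all genes higher and 17.4% lower. The median log2 fold change of the members was then 0.46, against 0.01 over all genes. The largest were Srm at 1.16 (edgeR adjusted p = 0.000563), Nop56 at 1.15 (0.000275), Myc at 1.05 (0.000522) and Dkc1 at 1.02 (0.00145). The 13 that were not called were Polr1a, Fbl, Wdr43, Utp20, Nop14, Noc4l, Rrp12, Pes1, Ppan, Ncl, Npm1, Mybbp1a and Odc1. Without libraries 7, 8 and 9, which leaves 5 against 2, none was higher and only Odc1 was lower, against 1.01% and 0.870% of all genes. The median was then -0.06, and the log2 fold change of Myc was -0.30 (edgeR adjusted p = 0.259). These subsets were chosen because the libraries were known to differ, so their calls describe libraries 7, 8 and 9 and are no independent test of recipient type. Limma-voom with sample quality weights and all 10 libraries called 21 members higher, all of them among the 23, and Fbl lower, against 23.7% and 23.0% of all genes. This fit gives libraries unlike the rest of their group less weight, and the weights were not looked at. Its log2 fold change was 0.85 for Myc and 0.97 for Nop56, between the edgeR values with all libraries and without libraries 10 and 11. Its calls are therefore no support independent of that subset.

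**Figure D3:**
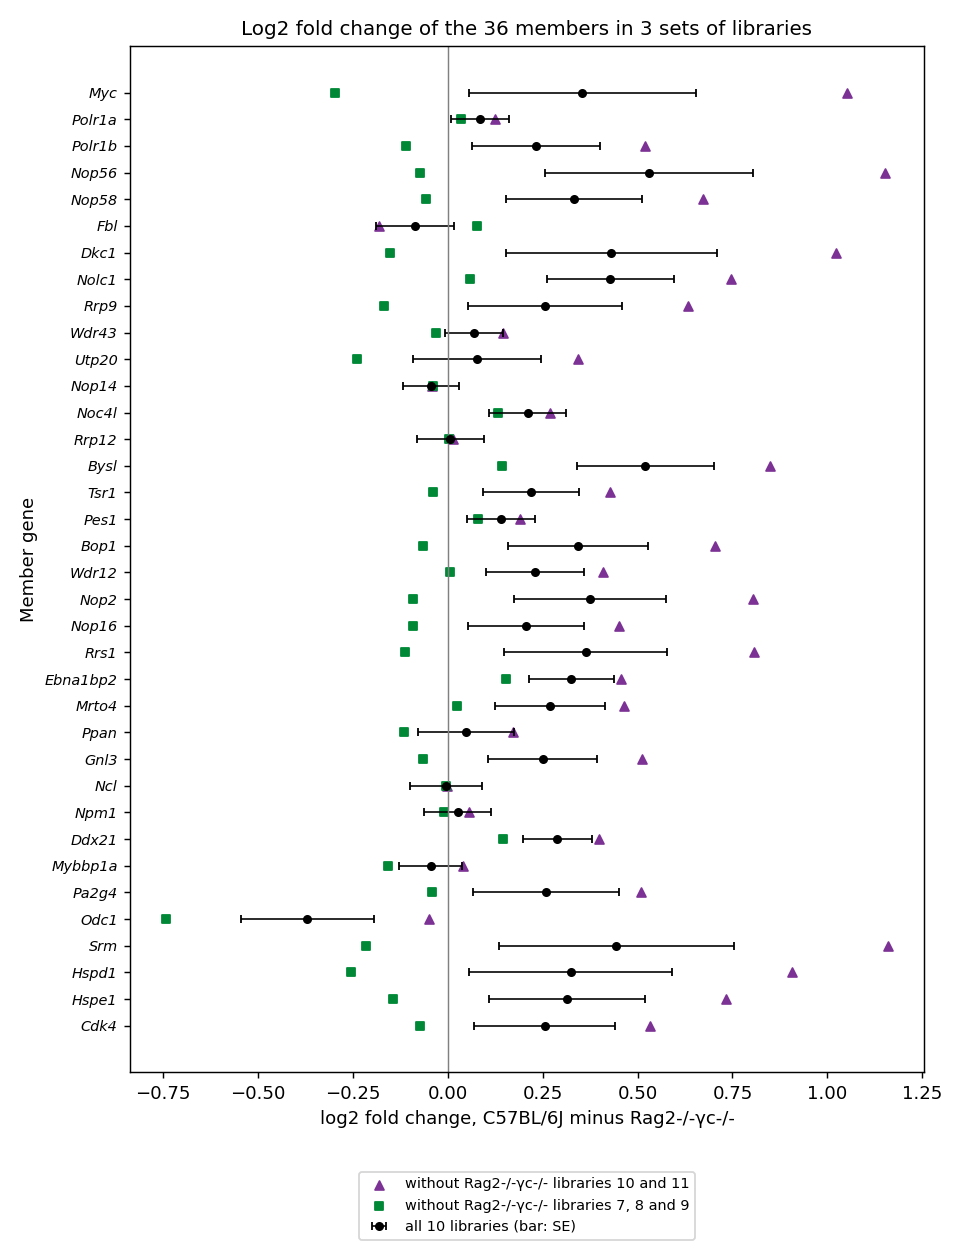
Log2 fold change, C57BL/6J minus Rag2-/-γc-/- (horizontal axis), of the 36 members (down the page) with all 10 libraries (black circles, bars are SE), without libraries 10 and 11 (purple triangles) and without libraries 7, 8 and 9 (green squares). The triangles of Srm, Nop56, Myc and Dkc1 lie above 1, whereas most squares lie near or below 0 and that of Odc1 lies at -0.74.

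Levels of different genes can be set side by side only per length, and these were taken as mean CPM over the 10 libraries per kb of merged exons in GENCODE M21. Npm1 was the highest at 252 CPM per kb, followed by Hspd1 at 100.1, Hspe1 at 95.1, Odc1 at 84.3 and Ncl at 79.1 CPM per kb. Myc was 15th of 36, at 26.7 CPM per kb in C57BL/6J libraries and 20.9 CPM per kb in Rag2-/-γc-/- libraries. The lowest were Utp20 at 5.51, Polr1b at 5.39 and Wdr12 at 2.39 CPM per kb. Merged exons include rare long isoforms (11.955 kb for Wdr12), which lowers the value of genes that have them.

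The other genes of the pathway are described by counts, each to be read beside its own tool's share of all genes. EdgeR called 3.32% of all genes higher and 4.47% lower, DESeq2 5.75% and 8.27%, and limma-voom 3.45% and 4.05%. With sample quality weights limma-voom called 23.7% higher and 23.0% lower. In edgeR none of 50 further small subunit factors passed the threshold (median log2 fold change 0.06, with 7 at an unadjusted p under 0.05). DESeq2 called 2 of them higher, Utp18 and Mphosph10, which were named for these calls, and limma-voom called Utp18. EdgeR also called none of 11 further snoRNP factors (median 0.28, 1 at an unadjusted p under 0.05), nor did DESeq2 or limma-voom. Of 19 genes of the RNA polymerase I apparatus (median 0.12, 2 at an unadjusted p under 0.05) edgeR and limma-voom called none and DESeq2 called Polr1e. With sample quality weights limma-voom called 17 higher and 5 lower, 6 higher, and 3 higher in these 3 lists. Among 47 further large subunit factors (median 0.12), DESeq2 called 1 higher and 3 lower, and limma-voom with quality weights 19 higher and 7 lower. In edgeR 1 rose and none fell. It was Sdad1, the counterpart of a yeast export factor, with 352, 408, 381, 447 and 416 CPM in C57BL/6J libraries, against 237, 276, 259.6, 348 and 334 CPM in Rag2-/-γc-/- libraries, groups that did not overlap. Its log2 fold change was 0.46 ± 0.12 (SE; edgeR adjusted p = 0.0369), but the call was lost without any 1 of C57BL/6J libraries 3, 4, 5 and 6 or Rag2-/-γc-/- libraries 7, 8 and 9 (adjusted p up to 0.0978), at log2 fold changes of 0.39 to 0.48. Without libraries 7, 8 and 9 together it was 0.24 (adjusted p = 0.447). The genes with the smallest p in the lists without an edgeR call were Utp18 (log2 fold change 0.43, edgeR adjusted p = 0.0528, DESeq2 0.0138) of the small subunit processome, Nhp2l1 (0.49, 0.124), which binds box C/D RNAs, and the polymerase I subunit gene Polr1e (0.35, 0.0952, DESeq2 0.0364).

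Of 19 tested genes of the Myc network, limma-voom with sample quality weights called 2 higher and 6 lower. None passed in edgeR (median 0.01, with 5 at an unadjusted p under 0.05), none in limma-voom without weights, and 2 were lower in DESeq2. The smallest p was that of Fbxw7, the substrate receptor of a ubiquitin ligase that degrades Myc. It had 25.6, 37.8, 32.8, 30.3 and 30.1 CPM in C57BL/6J libraries, against 62.3, 47.8, 46.8, 35.3 and 38.1 CPM in Rag2-/-γc-/- libraries, with -0.56 ± 0.16 as the log2 fold change (SE; edgeR adjusted p = 0.0539). Its highest library was number 7, the one with the lowest Myc mRNA. Library 11, the one with the highest Myc mRNA (90.9 CPM), was also above every C57BL/6J library in Fbxw7. A link between Fbxw7 and Myc was not tested. DESeq2 called Fbxw7 lower (adjusted p = 0.0125), and edgeR called it lower without library 10 (0.0203) or library 11 (0.0392), among other settings. Of 40 further Myc targets (median 0.26), DESeq2 called 1 higher and 1 lower, and limma-voom with quality weights 20 higher and 1 lower. In edgeR 1 fell and none rose. This was Ccnd2, a G1 cyclin, with 28.8, 24.7, 25.9, 17.2 and 6.47 CPM in C57BL/6J libraries, against 61.9, 69.1, 52.6, 38.8 and 64.8 CPM in Rag2-/-γc-/- libraries. Unlike the members it was higher in every Rag2-/-γc-/- library than in any C57BL/6J library (log2 fold change -1.48 ± 0.33, edgeR adjusted p = 0.0197), although the adjusted p was 0.0506 once C57BL/6J library 5 was left out, at -1.42, and 0.227 when libraries 7, 8 and 9 were, at -1.33. The 78 ribosomal protein genes, whose reads are shared with many pseudogenes, had a median of -0.08 and no calls in edgeR (2 at an unadjusted p under 0.05), DESeq2 or limma-voom. With sample quality weights limma-voom called 36 of them lower and 0 higher, against 23.0% and 23.7% of all genes. Rps27a had the smallest edgeR p (log2 fold change -0.21, adjusted p = 0.155), and it passed without C57BL/6J library 1 (-0.28, edgeR adjusted p = 0.0359) and with the quality weights.

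The position of libraries 7, 8 and 9 differed from list to list. They were all below the C57BL/6J range in 7 of 11 further snoRNP factors, 19 of 47 large subunit factors, 18 of 50 small subunit factors, 6 of 19 polymerase I genes and 21 of 40 further Myc targets, against 20.7% of all genes. Of the 78 ribosomal protein genes the count was 0. Relative to the mean of the C57BL/6J libraries, the median log2 level of the 36 members was -0.56, -0.43 and -0.35 in libraries 7, 8 and 9 and 0.08 and 0.04 in libraries 10 and 11. That of the ribosomal proteins was 0.17, 0.04 and 0.13 in libraries 7, 8 and 9 and 0.00 and 0.09 in libraries 10 and 11. In libraries 7, 8 and 9 the further snoRNP factors were at -0.52, -0.36 and -0.40 and the further large subunit factors at -0.20, -0.25 and -0.14. The further small subunit factors were at -0.13, -0.18 and -0.09 there, and the polymerase I genes at -0.08, -0.17 and -0.15. The members and the ribosomal proteins were thus not lower together, and the last 3 lists lay nearer to the C57BL/6J mean than the members, differences given without a test.

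**Figure D4:**
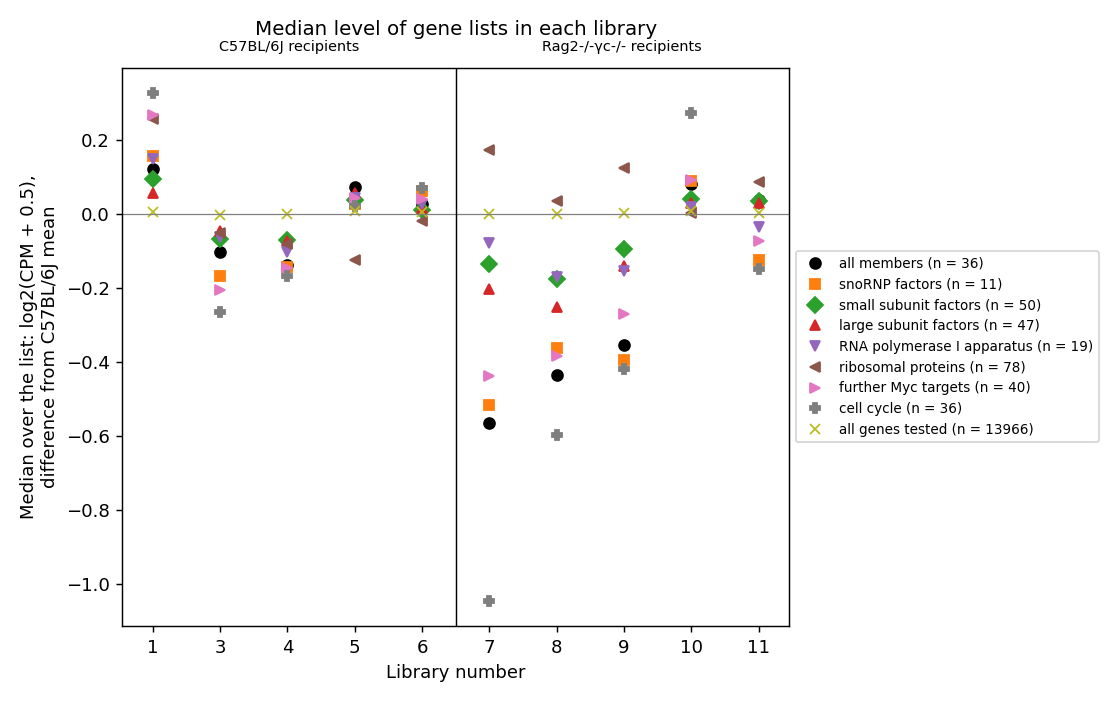
Median over each gene list of log2(CPM + 0.5) minus the mean of the C57BL/6J libraries (vertical axis), in each library (horizontal axis, C57BL/6J at the left), with n the genes tested. The members (black circles) lie at -0.56, -0.43 and -0.35 in libraries 7, 8 and 9, with cell cycle genes further down in each and ribosomal proteins above 0.

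Many of the cell cycle genes moved with most of the members. The 37 genes of that list summed to 4093 to 5348 CPM in C57BL/6J libraries. In Rag2-/-γc-/- libraries 7, 8, 9, 10 and 11 they summed to 2584, 3156, 3423, 5647 and 4833 CPM. Of 36 tested, 23 had libraries 7, 8 and 9 all below the C57BL/6J range, against 20.7% of all genes. Pcna, Mcm4, Mcm5 and Ccnd2 are also in the list of further Myc targets. DESeq2 and limma-voom each called 1 higher and 1 lower. With sample quality weights limma-voom called 19 higher and 2 lower, against 23.7% and 23.0% of all genes. With all libraries, Ccnd2 was lower and Ccne1, a cyclin of entry into S phase, was higher in C57BL/6J recipients, at 39.7, 36.1, 34.99, 37.4 and 41.4 CPM against 22.3, 23.02, 27.6, 34.5 and 25.7 CPM in Rag2-/-γc-/- recipients (log2 fold change 0.51 ± 0.12, edgeR adjusted p = 0.0294). The call of Ccne1 was lost without any 1 of C57BL/6J libraries 3, 5 and 6 or Rag2-/-γc-/- libraries 7, 8 and 9 (adjusted p up to 0.0793), at log2 fold changes of 0.45 to 0.53. Without libraries 7, 8 and 9 together it was 0.34 (adjusted p = 0.337). The part of cell cycle activity in the members' differences was not tested. In bulk RNA, fewer cells with high levels and less RNA per cell cannot be told apart.

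Cell type markers also differed between libraries. Summed dendritic cell markers were 1867, 2138 and 2267 CPM in libraries 7, 8 and 9 and 3227 and 3157 CPM in libraries 10 and 11, all below the C57BL/6J range, with 1 of 7 tested genes past the threshold. Irf8 was the largest of them in every library, at 917.4 to 2219.5 CPM. T cell markers summed to 62.9 to 116 CPM in C57BL/6J libraries and 21.1 to 47.4 CPM in Rag2-/-γc-/- libraries (1 of 6 tested genes higher), but most of this was Cd8a, which some dendritic cells also express, at 48.6 to 107 and 14.9 to 41.2 CPM. The defining genes Cd3d, Cd3e, Cd3g, Trac, Cd28 and Cd8b1 were each at most 3.82 CPM in C57BL/6J libraries and 0.126 CPM in Rag2-/-γc-/- libraries. B and plasma cell markers summed to 89.9 to 313 and 61.1 to 162 CPM (2 of 6 higher), mostly Ighm. Without Ighm they summed to 145 CPM in C57BL/6J library 1, at most 25.3 CPM in the other C57BL/6J libraries and 2.51 to 3.72 CPM in Rag2-/-γc-/- libraries. C57BL/6J library 1, which had the highest value in 14 of the 36 members, thus also had the highest sum of these B cell genes. NK cell markers summed to 30.9 to 43.3 and 10.8 to 28.9 CPM (2 of 4 higher), mostly Klrd1 and Klrk1. Klrd1 alone was at 13.6 to 21.5 CPM in C57BL/6J libraries and 7.78 to 18.6 CPM in Rag2-/-γc-/- libraries. Ncr1, Gzma, Prf1, Eomes and Nkg7 were each at most 2.63 CPM in C57BL/6J libraries and 0.0759 CPM in Rag2-/-γc-/- libraries. Klrb1c was above every C57BL/6J library (at most 1.19 CPM) in libraries 7, 8 and 9, and within their range in libraries 10 and 11. Macrophage markers summed to 23.0 to 199 CPM in C57BL/6J libraries and 97.6 to 328 CPM in Rag2-/-γc-/- libraries (1 of 8 lower), and erythroid markers to 14.9 to 146 and 74.8 to 243 CPM (1 of 7 lower). Endothelial and stromal markers summed to 1.19 to 2.06 and 0.719 to 1.59 CPM, and 1 of their 7 genes had no count in any library. Whether these markers came from the leukaemia cells or from other cells was not tested, nor was their part in the members' differences.

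Some members share sequence with other genes, which bears on how their reads were assigned. Taking a value as whole only where it is exactly so, expected counts were not whole in all 10 libraries for 16 of 36 members, among them Npm1, Odc1, Hspd1, Hspe1 and Cdk4, and were whole in all 10 for 14, among them Myc, Nop58, Dkc1, Nolc1, Nop2 and Srm. By the annotation, 32.3% of the exonic bases of Tsr1 are also exons of Srr on the other strand, 19.7% of those of Cdk4 are exons of Tspan31 and 9.37% of those of Bysl are exons of Ccnd3. Srr averaged 8.51 ± 0.679 CPM in C57BL/6J libraries and 7.63 ± 1.004 CPM in Rag2-/-γc-/- libraries (SD, n = 5 each), under the level of Tsr1. Tspan31 averaged 71.6 ± 7.23 and 70.2 ± 11.5 CPM, and Ccnd3 284 ± 37.7 and 210.0 ± 53.4 CPM, so values of Cdk4 and Bysl may hold reads of these neighbours.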

How the data were processed

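RNA-seq libraries were made from poly(A)-selected RNA of GFP+ splenocytes. The authors deposited 1 table of expected counts per Ensembl gene and library. Per the submitters' processing notes, the build was GRCm38 and the tools were edgeR, RSEM 1.2.30, STAR 2.5.2a and cutadapt 1.11. What each did, and the filters, annotation release and strand setting, is not given in the sources used here. RSEM-type expected counts divide reads that match several genes, so 15.3 to 17.3% of a library's values were not exactly whole, and they were rounded for the count tests.

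Libraries were grouped by title, and each column carries a library's title. Within groups, all 20 pairs of libraries differed by more than sampling noise (ratio of chi-square to degrees of freedom between 8.61 and 207), and each library counted as 1 replicate. The test was edgeR 4.0.16 (R 4.3.3), quasi-likelihood F test, TMM scaling, filterByExpr (minimum count 10, minimum total 15), group term alone, adjustment over 13966 of 38215 genes and threshold 0.05. All 36 members passed the filter. Standard errors are the unshrunken coefficient over the square root of F, CPM uses TMM-scaled library sizes, and log2 levels add a pseudocount of 0.5 CPM. The procedure was tested on simulated data, in which the libraries of a group varied independently of one another. The simulation held no split inside the Rag2-/-γc-/- group and no shared primary leukaemia, so it does not bear on either.

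The members and lists were chosen with earlier results of these data known, so no list test is given. All 36 members are described, with up to 4 genes of each further list that had the smallest p among those past the threshold, or the 1 with the smallest p. Of 409 list entries 408 were matched, 15 of them through the GENCODE M21 symbol. Alternatives were other scalings, DESeq2 1.42.0, limma-voom (limma 3.58.1) with and without sample quality weights, other count filters, robust dispersion, and leaving out single libraries or libraries 10 and 11, or 7, 8 and 9, of the Rag2-/-γc-/- group.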

Additional observations from a re-analysis of the deposited data

Results flagged for a closer look

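Of 72 sets of 5 values (36 members in 2 groups), 4 held a library whose gap to its nearest neighbour was a large part of the whole range (Dixon's ratio above 0.71). Chance flags about 1 in 20 such sets, and 4 of 72 is 5.56%. All 4 were high values in C57BL/6J libraries. Fbl had 158 CPM in library 1, with the next at 128 CPM, and Odc1 had 299.99 CPM in library 1, with the next at 249 CPM. Wdr43 had 103 CPM in library 5, with the next at 94.2 CPM, and Utp20 had 73.2 CPM in library 5, with the next at 56.1 CPM. No Rag2-/-γc-/- library was singled out in this way.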

How the results depend on the processing

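In the edgeR fit reported above no member was past the threshold with all libraries, so there was no call to lose. The count of members higher in C57BL/6J recipients was 0 under RLE, upper quartile and total-count scaling, limma-voom, both other filters and robust dispersion, and 1 in DESeq2, 21 in limma-voom with sample quality weights and 23 without Rag2-/-γc-/- libraries 10 and 11. The count lower was 1 with quality weights and 1 without libraries 7, 8 and 9. Leaving out single libraries gave 0 to 3 higher (3 without library 10, against 7.58% of all genes, and 2 without library 11, against 4.33%) and 0 lower. The median log2 fold change was 0.16 to 0.33 over these and -0.061 without libraries 7, 8 and 9. In that subset the sign turned in 22 members, with log2 fold changes of -0.30 for Myc, -0.11 for Polr1b, -0.073 for Nop56, -0.057 for Nop58, 0.078 for Fbl, -0.15 for Dkc1, -0.17 for Rrp9, -0.030 for Wdr43, -0.24 for Utp20, -0.039 for Tsr1, -0.066 for Bop1, -0.092 for Nop2, -0.093 for Nop16, -0.11 for Rrs1, -0.12 for Ppan, -0.065 for Gnl3, -0.0097 for Npm1, -0.042 for Pa2g4, -0.22 for Srm, -0.25 for Hspd1, -0.14 for Hspe1 and -0.074 for Cdk4. The sign also turned for Mybbp1a without libraries 10 and 11 (0.040), for Ncl under upper quartile scaling (0.010), total-count scaling (0.020) and no count filter (0.0041), for Npm1 with quality weights (-0.042) and for Rrp12 under the stricter filter (-0.0062), all near 0. Leaving out single libraries turned Npm1 (-0.034 to 0.062), Rrp12 (-0.034 to 0.061), Ncl (-0.074 to 0.032), Ppan (-0.018 to 0.13) and Utp20 (-0.028 to 0.20). The cause of these changes was not tested. No paired analysis was possible because the recipient groups share no library number.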
